A study of Mus musculus with 7 samples.

Results

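The 6 genes described here belong to the plasminogen activator system and were measured in brain vessels, from the proteases that make plasmin to the receptor that clears them. They were Plat and Plau, the activators tPA and uPA, Plaur, the uPA receptor, Serpine2 and Serpini1, which encode the inhibitors protease nexin-1 and neuroserpin, and Lrp1, the clearance receptor. Members were found as probe sets whose platform annotation gives that symbol alone, taking the brightest where a gene had several. This gave 5 of the 6 genes, each with 1 probe set, among 22180 genes that could be named this way. Serpine2 was not analysed here. All 5 measured members passed the filter on dim probe sets, a mean log2 value above 4.14.

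RNA came from vascular fragments of the brain, that is, small vessels with the cells attached to them. The mice were female, 12 weeks old and of the strain C57BL/6N according to the study design, while the sample labels say C57BL/6 and adult. They had been injected intracerebroventricularly, into the fluid spaces of the brain, 4 h before they were killed. One group received PDGF-CC protein (4 arrays) and the control group PBS, the buffer (3 arrays). The labels name no transgene, deletion or other agent in either group. Nothing in them ties a sample to its own mouse, so p-values cover the spread among these samples, part of which may be technical.

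Plasminogen activators are serine proteases that cut plasminogen into plasmin, the enzyme that dissolves fibrin. In the brain, tPA also cuts latent PDGF-CC and so lets it bind the receptor PDGFR-alpha, and it is known for its part in opening the blood-brain barrier after stroke. Serpins such as neuroserpin trap the activators, and LRP1, a large endocytic receptor, removes the complexes and also serves as a partner of tPA in the activation of PDGF-CC. The comparison gives the RNA levels of these activators and their brakes after PDGF-CC itself had been injected.

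The activators differed in opposite directions, and neither difference passed the threshold after adjustment over all probe sets. Plat was at lower values in all 4 PDGF-CC arrays than in any PBS array, by -0.29 on the log2 scale, or 1.23-fold. Plau was at higher values in all 4 PDGF-CC arrays than in any PBS array, by +0.34, or 1.27-fold. Plaur had a lower mean with overlap between the groups, and Serpini1 and Lrp1 differed by less than the spread between arrays.

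Plat encodes tPA, the activator that endothelial cells release. Its log2 values in the PDGF-CC arrays 1 to 4 were 9.57, 9.85, 9.83 and 9.52. In the PBS arrays 1 to 3 they were 9.90, 10.15 and 9.92. The groups did not overlap, but the highest PDGF-CC array lay only 0.045 below the lowest PBS array. PDGF-CC arrays 2 and 3 lay close to the PBS values and arrays 1 and 4 lay lower. The group means were 9.69 ± 0.17 (SD, n = 4) and 9.99 ± 0.14 (SD, n = 3). The difference was -0.29 ± 0.11 (SE), with a 95% interval from -0.56 to -0.03 and an unadjusted p of 0.0332 by limma. Adjusted over the 17734 probe sets tested, p was 0.769. The exact permutation test over the 35 splits of the arrays gave a 2-sided p of 0.0857.

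Plau encodes uPA, the activator that works at the cell surface. Its log2 values were 7.66, 7.53, 7.52 and 7.56 in PDGF-CC arrays 1 to 4, and 7.33, 7.07 and 7.27 in PBS arrays 1 to 3. The PDGF-CC arrays lay within a narrow band, and the gap between the groups, 0.19, was wider than that band. The group means were 7.57 ± 0.060 (SD, n = 4) and 7.23 ± 0.13 (SD, n = 3). The difference was +0.34 ± 0.075 (SE), with a 95% interval from 0.17 to 0.52 and an unadjusted limma p of 0.00255, the 60th smallest of 17734. The adjusted p was 0.754. The exact permutation p was 0.0286 (2-sided), the smallest that 4 arrays against 3 can give.

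Across all 17734 probe sets, limma called 0 higher and 0 lower at an adjusted p under 0.05, which is 0% in each direction. At an unadjusted p under 0.05 there were 1071 (6.04%), 467 of them higher (2.63%) and 604 lower (3.41%). Of the 5 measured members, 1 was among the higher (Plau) and 1 among the lower (Plat). Groups did not overlap for 763 probe sets (4.3%), of which 319 were higher (1.8%) and 444 lower (2.5%) in PDGF-CC. Plau was in the first of these groups and Plat in the second. With only 5 genes, nothing is read from their shares against these.

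**Figure D1:**
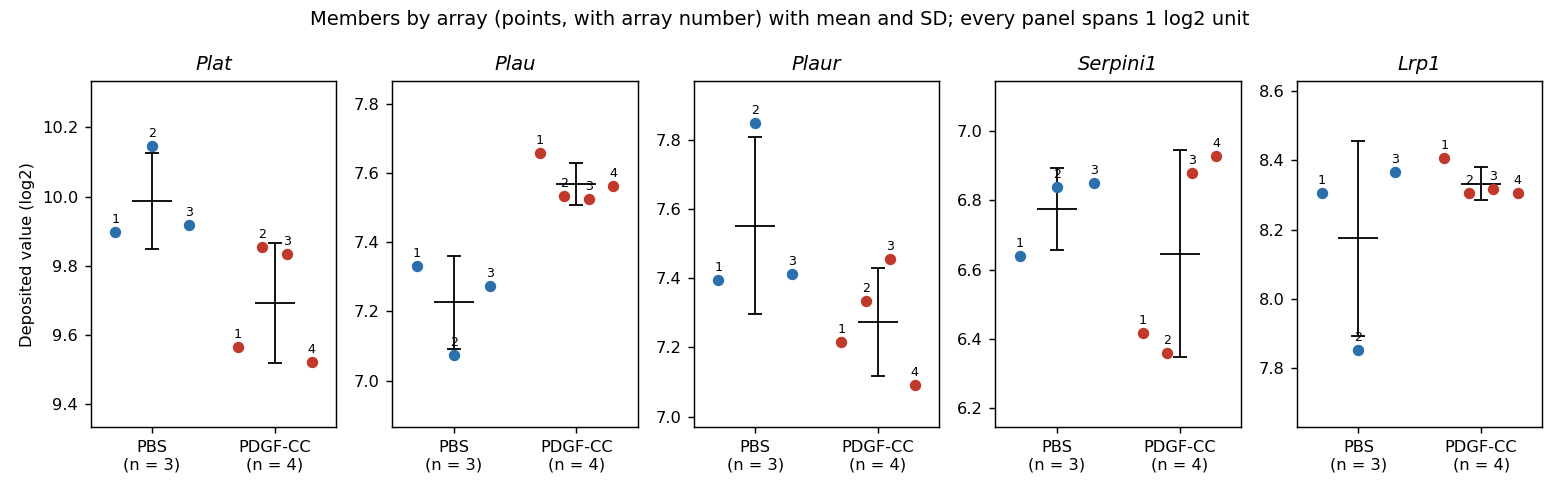
Deposited log2 value of each measured member (vertical axis) in the PBS arrays (blue, n = 3) and PDGF-CC arrays (red, n = 4), with the array number beside each point and the mean and SD as a black bar. Plat and Plau have groups that do not overlap, with Plat lower and Plau higher in PDGF-CC. PBS array 2 lies furthest from the PBS mean for Plat, Plau, Plaur and Lrp1, and PBS array 1 for Serpini1.

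**Figure D2:**
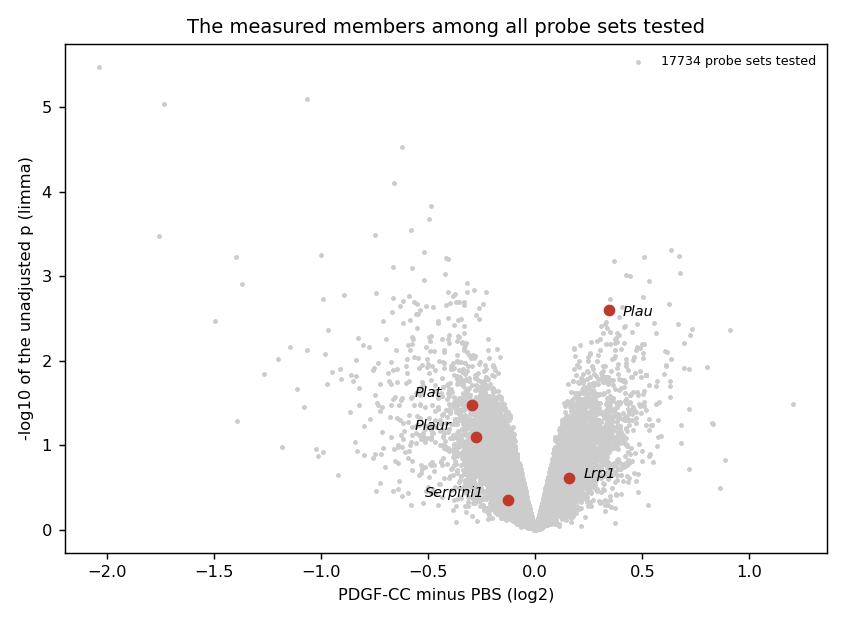
Difference between PDGF-CC and PBS in log2 (horizontal axis) against -log10 of the unadjusted limma p (vertical axis) for the 17734 probe sets tested (grey) and the 5 measured members (red). Plau, at +0.34, is the member with the smallest p, and all 5 members lie inside the cloud of other probe sets.

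Plaur encodes the receptor that holds uPA on the cell surface, and its values overlapped between the groups. They were 7.22, 7.33, 7.46 and 7.09 in PDGF-CC arrays 1 to 4 and 7.40, 7.85 and 7.41 in PBS arrays 1 to 3. PDGF-CC array 3 exceeded PBS arrays 1 and 3, while PBS array 2 stood well above all others. The difference was -0.28 ± 0.14 (SE), with a 95% interval from -0.60 to 0.04 (adjusted limma p = 0.769) and an exact permutation p of 0.143. Without PBS array 2 it was -0.13. The value of this receptor was thus lower on average while that of its ligand gene Plau was higher, but only the values of Plau separated the groups.

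Serpini1 encodes neuroserpin, a secreted inhibitor of tPA best known from neurons. Its values were 6.42 and 6.36 in PDGF-CC arrays 1 and 2 but 6.88 and 6.93 in arrays 3 and 4. The PBS arrays were at 6.64, 6.84 and 6.85. The PDGF-CC arrays therefore fell into a low and a high pair, with the PBS arrays between them. The difference was -0.13 ± 0.16 (SE), with a 95% interval from -0.51 to 0.25 (adjusted limma p = 0.847) and an exact permutation p of 0.514. Each sample description holds a number, 1 to 7 in all, and the low pair had numbers 1 and 2 and the high pair 5 and 6. Within numbers 1 to 4 Serpini1 differed by -0.35, and within 5 to 7 by +0.05. The difference was -0.02 with this number as a covariate and also -0.02 with array weights. Leaving out PDGF-CC arrays 1, 2, 3 and 4 gave -0.05, -0.03, -0.21 and -0.22 in that order, and leaving out PBS array 1 gave -0.20.

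Lrp1 encodes the receptor that takes up activators bound to their inhibitors. Its values were 8.41, 8.31, 8.32 and 8.31 in PDGF-CC arrays 1 to 4 and 8.31, 7.85 and 8.37 in PBS arrays 1 to 3. One array stood apart, PBS array 2, and the other 6 lay close together. PDGF-CC arrays 2 and 4 and PBS array 1 held exactly the same deposited value, and the SD of 0.049 in PDGF-CC includes that equal pair; the origin of equal values was not tested. The difference was +0.16 ± 0.12 (SE), with a 95% interval from -0.13 to 0.45 (adjusted limma p = 0.782) and an exact permutation p of 0.371. Without PBS array 2 the difference was -0.003, and without PBS array 3 it was +0.25. Within description numbers 1 to 4 it was +0.28 and within 5 to 7 -0.06.

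PBS array 2 lay furthest from the mean of its group for 4 of the 5 measured members. In any group of 3 arrays some array lies furthest. PBS array 1 was likewise the highest or lowest of the PBS arrays for Plat, Plau, Plaur and Serpini1. PBS array 2 was the highest of the PBS arrays for Plat and Plaur and the lowest for Plau and Lrp1. Without it the difference was -0.21 for Plat and +0.27 for Plau (adjusted p = 0.804 and adjusted p = 0.780 by limma). Leaving out each array in turn gave -0.35 to -0.21 for Plat and 0.27 to 0.39 for Plau. Within description numbers 1 to 4 the differences for Plat and Plau were -0.31 and +0.39, and within 5 to 7 they were -0.24 and +0.27. As the groups did not overlap for Plat or Plau, neither a left-out array nor such a part could have changed the direction. PDGF-CC numbers come before PBS numbers in each of these parts, so treatment and order within a part cannot be told apart.

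**Figure D3:**
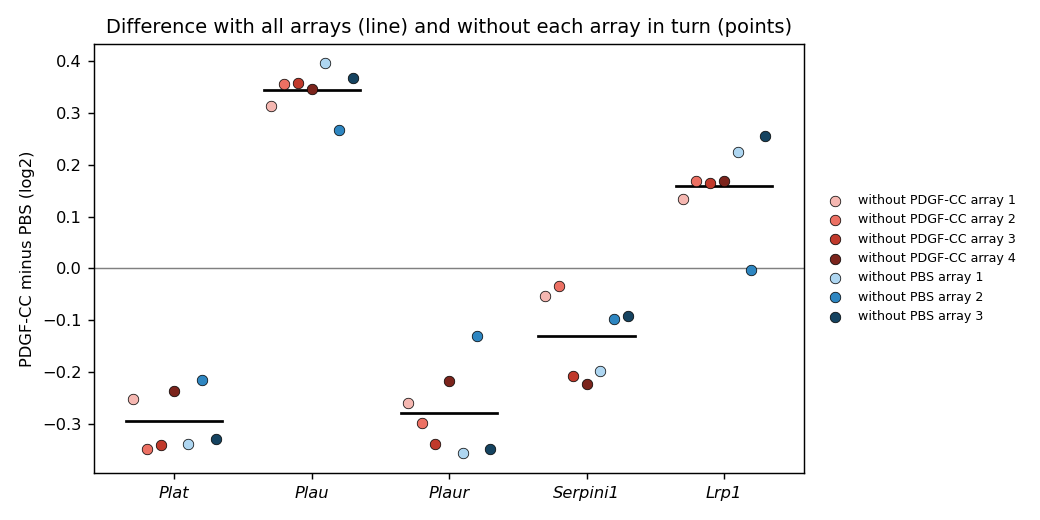
Difference between PDGF-CC and PBS in log2 (vertical axis) for each measured member with all 7 arrays (black line) and without each array in turn (points, coloured by the array left out). Plat, Plaur and Serpini1 stay below 0 and Plau above 0 in every case, while Lrp1 goes to -0.003 without PBS array 2. For Plat and Plau no left-out array could change the direction, as their groups do not overlap.

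Marker genes of the cells that vascular fragments can hold were read beside these results. In bulk RNA, fewer cells of a type and less RNA per cell cannot be told apart. All 7 endothelial markers were above the filter, and their mean log2 level ran from 10.71 to 10.81 in PDGF-CC and from 10.73 to 10.89 in PBS, so RNA of the labelled tissue was present in every array. Of these 7, 6 had lower values in PDGF-CC, the direction of Plat, and none did so without overlap between the groups. By array the match did not hold throughout. PBS array 2 had the lowest endothelial mean of the PBS arrays (10.73) but the highest Plat value of all arrays (10.15). All 4 smooth muscle markers had higher values, the direction of Plau, with mean levels of 9.83 to 9.96 in PDGF-CC and 9.52 to 9.89 in PBS. The lowest of these means was that of PBS array 1, which had the highest Plau value of the PBS arrays (7.33). Of the 4 smooth muscle markers only Cnn1, a gene of the contractile apparatus, did not overlap between groups (+0.21 ± 0.059, adjusted p = 0.769 by limma). Groups also did not overlap for microglial Cx3cr1 and Trem2 and oligodendrocyte Mog (higher). The same held for pericyte Kcnj8, the neutrophil and monocyte marker Ly6c2 and all 6 choroid plexus markers (lower). Among all probe sets tested 4.3% did not overlap. Of the 6 microglial markers 5 had higher values in PDGF-CC, with mean levels of 9.55 to 9.59 against 9.11 to 9.45 in PBS. PBS array 2 was the lowest array in that list, as it was for Plau and Lrp1. PDGF-CC array 3, the highest in that list (9.59), had however the lowest Plau value of its group (7.52). All 6 choroid plexus markers had lower values, with mean levels of 6.71 to 7.52 in PDGF-CC and 7.73 to 8.07 in PBS. PBS array 2 was the highest there, as it was for Plat and Plaur. PDGF-CC array 4, the highest of its group for choroid plexus markers (7.52), was however the lowest array for Plat (9.52) and Plaur (7.09).

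All 5 neutrophil and monocyte markers had lower values in PDGF-CC, with mean levels of 6.48 to 7.44 against 6.98 to 8.15 in PBS and overlap between the groups. PDGF-CC array 4, the lowest in that list, was also the lowest for Plat and Plaur. PBS array 1, the highest in that list (8.15), was however the lowest PBS array for Plat (9.90) and Plaur (7.40). All 6 pericyte markers had lower values (9.51 to 9.90 against 9.76 to 10.00), and PDGF-CC arrays 1 and 2, lowest in that list, were the lowest for Serpini1 as well. The same arrays were also the lowest for the endothelial, astrocyte and fibroblast lists, so this was not particular to pericytes. Of the 7 neuronal markers 5 passed the filter, with mean levels of 4.69 to 4.89 in PDGF-CC and 4.67 to 4.76 in PBS, and Gad2 and Tubb3 were below it. The mean levels of fibroblast markers were 5.89 to 6.13 in PDGF-CC and 6.11 to 6.29 in PBS, and those of astrocytes 6.69 to 6.98 and 6.75 to 6.99. Border macrophage markers were at 6.79 to 7.46 and 6.99 to 7.23, oligodendrocyte markers at 4.81 to 5.34 and 4.75 to 4.92, and markers of their precursors at 5.37 to 5.47 and 5.32 to 5.41. Apart from Gad2 and Tubb3, no measured marker was below the filter. The part of any of these cell types in the results for Plat, Plau, Plaur, Serpini1 and Lrp1 was not tested.

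**Figure D4:**
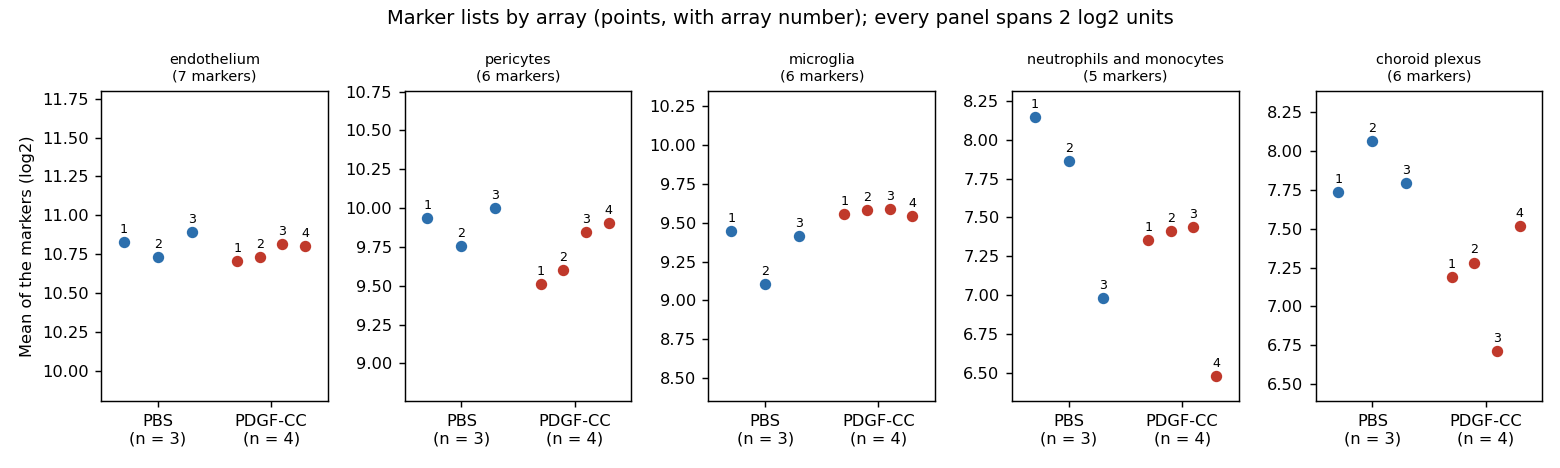
Mean log2 level of the markers of 5 cell types (vertical axis) in each PBS array (blue, n = 3) and PDGF-CC array (red, n = 4), with the array number beside each point. The microglial means of all PDGF-CC arrays lie above those of all PBS arrays, and the choroid plexus means lie below them.

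The wider pathway was described with 66 further genes in 6 lists, of which 59 had a probe set and 47 passed the filter. None passed the adjusted threshold by limma. At an unadjusted p under 0.05, 1 had higher and 2 had lower values, and the groups did not overlap for 3, 2 higher and 1 lower. Each of these counts is 6.38% of the 47, near the 6.04% at that p and the 4.3% without overlap among all probe sets. The median difference over the 47 was -0.02, and over all 17734 probe sets -0.004.

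Plasminogen, its receptors and the contact-phase protease F12 made up a list with 7 of 9 genes past the filter, 3 with higher and 4 with lower values and a median of -0.01. Plg, the substrate of both activators, was close to the filter (PDGF-CC mean 4.16, PBS mean 4.17). Itgam, the integrin chain that binds plasminogen and uPAR on myeloid cells and is also a microglial gene, was at +0.35 ± 0.16 (+0.16 without PBS array 2). Its values were 8.97, 8.82, 8.68 and 8.61 in PDGF-CC and 8.65, 8.04 and 8.56 in PBS, so only PDGF-CC array 4 fell below a PBS array. Plgrkt, a plasminogen receptor, was at -0.16 ± 0.11 and S100a10, which docks plasminogen and tPA at the membrane, at -0.10 ± 0.068. F12, the clotting factor that starts the contact phase, was at +0.13 ± 0.097, with a PBS mean of 4.13 just under the filter. Without PDGF-CC array 3 Plgrkt was at -0.08, without PDGF-CC array 2 S100a10 was at -0.05, and F12 was at +0.04 without PBS array 1.

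Among the other inhibitors 8 of 15 genes passed the filter, 2 with higher and 6 with lower values and a median of -0.01. A2m, which encodes the protease trap alpha-2-macroglobulin, a ligand of LRP1, had the largest difference of the named pathway genes. Its values were 6.24, 6.27, 5.97 and 6.16 in PDGF-CC and 6.90, 7.43 and 6.40 in PBS, with no overlap. The difference was -0.75 ± 0.22 (SE), with an adjusted p of 0.769 by limma. The exact permutation p was 0.0286 (2-sided). Without PBS array 2, the highest, the difference was -0.49. That array was also the highest in choroid plexus markers, and the part of those cells in the A2m result was not tested.

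Serpina3n, an acute-phase serpin, was at -0.28 ± 0.38, Serpinf1 at +0.06 ± 0.059 and the collagen chaperone gene Serpinh1 at +0.09 ± 0.12. Leaving out PDGF-CC array 4 put Serpinf1 at +0.019. Serpinh1 was between +0.006 without PBS array 2 and +0.18 without PDGF-CC array 2; leaving out PDGF-CC array 3 or 4 gave +0.06 or +0.03, and PBS array 3 +0.17. Serpina3n ran from -0.73 without PBS array 3 to -0.05 without PBS array 1. Leaving out PBS array 2, PDGF-CC array 4 and PDGF-CC array 2 gave -0.08, -0.10 and -0.43. Serpinf2, the gene of the plasmin inhibitor alpha-2-antiplasmin, was below the filter, with means of 3.81 and 3.84.

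The LDL receptor family, to which Lrp1 belongs, had 9 of 12 genes past the filter, 4 with higher and 5 with lower values and a median of -0.04. Lrp12 was at +0.31 ± 0.19, Lrp4 at +0.10 ± 0.078, the reelin receptor gene Lrp8 at +0.08 ± 0.064 and Vldlr, the other reelin receptor, at -0.17 ± 0.11. Without PBS array 2 these were +0.08, +0.008, +0.04 and -0.06. Without PBS array 1 Lrp12 was at +0.50 and Lrp4 at +0.15, and without PDGF-CC array 4 Lrp8 was at +0.05. Lrpap1, which encodes the chaperone that keeps LRP1 free of ligands during its folding, was at -0.06 ± 0.053. None of these passed the adjusted threshold by limma.

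The 7 PDGF ligands, receptors and partners all passed the filter, 3 with higher and 4 with lower values and a median of -0.05. Pdgfb, the ligand gene by which endothelium recruits pericytes, did not overlap between groups. Its values were 8.38, 8.52, 8.40 and 8.51 in PDGF-CC and 8.23, 8.24 and 8.31 in PBS, a difference of +0.20 ± 0.058 (adjusted limma p = 0.769, exact permutation p = 0.0286). Nrp1, a coreceptor, was at 9.53, 9.21, 9.29 and 9.53 in PDGF-CC and at 9.77, 9.53 and 9.65 in PBS. Its difference was -0.26 ± 0.10, with an exact permutation p of 0.171. Pdgfc, which encodes the injected ligand and is the gene of the substrate of tPA, was at +0.02 ± 0.054, with a 95% interval from -0.11 to 0.14. It was between -0.01 (without PBS array 2) and +0.04 (without PDGF-CC array 1).

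For the receptor of PDGF-CC, Pdgfra, values in PDGF-CC were 3.84, 4.39, 4.91 and 4.59, near the filter, and in PBS 4.69, 4.68 and 5.22. The difference was -0.43 ± 0.26, and -0.23 without PDGF-CC array 1, the lowest, and -0.25 without PBS array 3, the highest. Pdgfrb was at -0.05 ± 0.19, from -0.25 without PBS array 2 to +0.14 without PBS array 3, and at +0.06 with the description number as a covariate. It was at +0.03 without PDGF-CC array 1, -0.12 without array 3 and -0.08 without array 4. Pdgfa was at +0.11 ± 0.064 (+0.06 without PBS array 1). Pdgfd was at -0.06 ± 0.079, and leaving out PDGF-CC arrays 2 and 4 gave -0.03 and -0.13.

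Among substrates of plasmin and of the activators 7 of 13 genes passed the filter, 2 with higher and 5 with lower values and a median of -0.03. Tgfb1, whose latent product plasmin can release, was at 9.01, 8.98, 8.99 and 8.998 in PDGF-CC and at 8.94, 8.41 and 8.98 in PBS. The groups did not overlap, but PBS arrays 1 and 3 lay just below the PDGF-CC values. The difference of +0.22 ± 0.13 had an adjusted p of 0.770 by limma and became +0.04 without PBS array 2. The genes of the fibrinogen chains, Fga, Fgb and Fgg, were all below the filter. Mmp9, a matrix protease gene, was at -0.27 ± 0.21 (-0.07 without PDGF-CC array 1), Bdnf, a neurotrophin gene, at -0.05 ± 0.051 and Mst1 at +0.06 ± 0.078. Bdnf was at -0.02 and Mst1 at +0.001 without PDGF-CC array 1, Mst1 was at +0.10 without PDGF-CC array 3, and Bdnf was at -0.03 without PBS array 2.

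Endothelial clotting and anticoagulant genes had 9 of 10 members past the filter, 4 with higher and 5 with lower values and a median of -0.003. Tfpi, the inhibitor of the tissue factor pathway, was at -0.11 ± 0.088 and Vwf, von Willebrand factor, at -0.08 ± 0.11. Procr, the endothelial protein C receptor gene, was at +0.08 ± 0.071, and F2r, a thrombin receptor gene, at +0.05 ± 0.079. Vwf ran from -0.21 without PBS array 2 to +0.02 without PBS array 3. Leaving out PDGF-CC array 2 put Tfpi at -0.06, and leaving out PBS array 3 put it at -0.04. Leaving out PBS array 1 put Procr at -0.002, and leaving out PBS array 2 or 3 put it at +0.12. For F2r, leaving out PDGF-CC array 1 gave -0.007, PBS array 2 +0.09 and PBS array 1 +0.03.

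**Figure D5:**
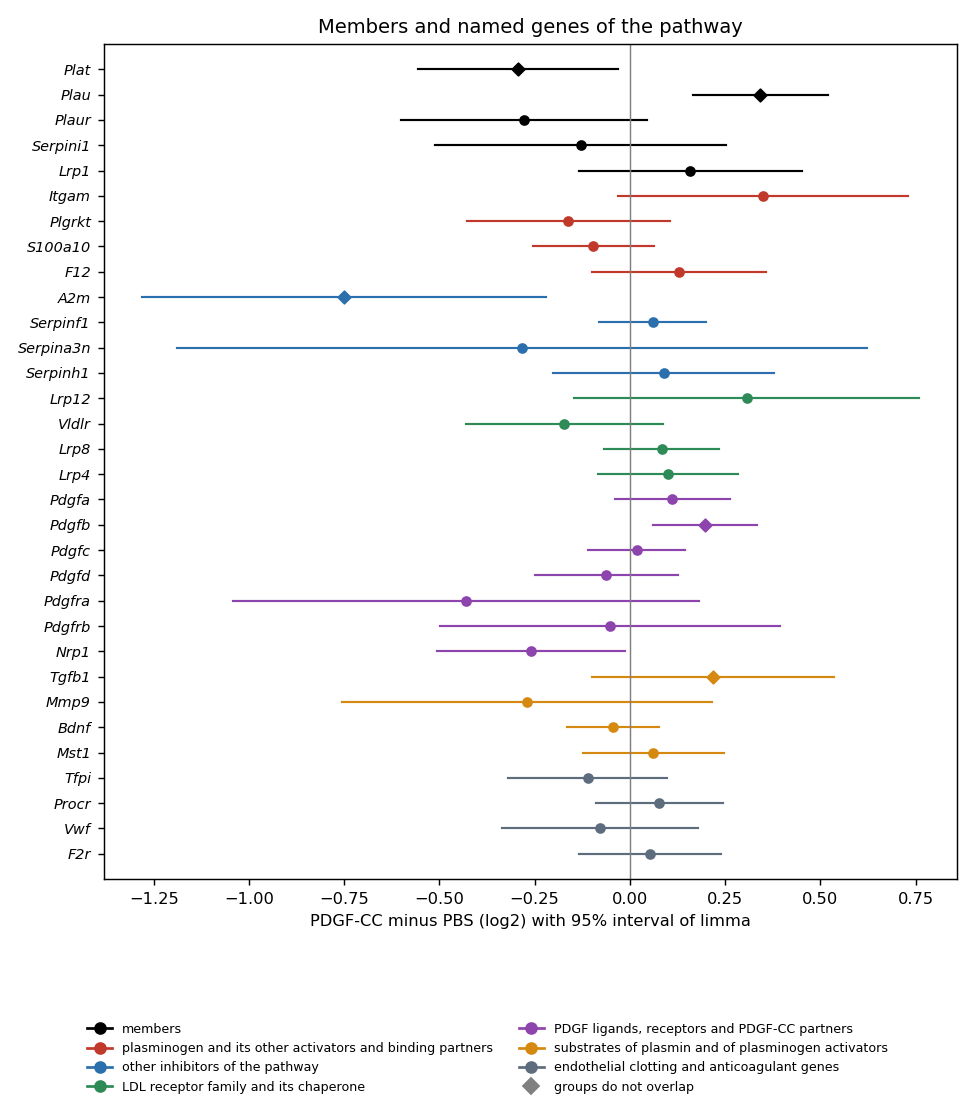
Difference between PDGF-CC and PBS in log2 (horizontal axis, points) with the 95% interval of limma (lines) for the 5 measured members and 27 genes of the pathway, coloured by list; diamonds mark genes whose groups do not overlap. Plau and Pdgfb have intervals above 0 and Plat, A2m and Nrp1 below 0, before any adjustment.

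For each member, the genes with the most similar values were sought by Pearson correlation over the 7 arrays among 14119 other genes. With so few arrays, 35 genes correlated above 0.9 with Plat, 71 with Plau, 80 with Plaur, 85 with Serpini1 and 427 with Lrp1, so the order is a description only. Those nearest to Plat were Zfp781 (0.98), the phosphatase gene Dusp14 (0.98) and the cytokine gene Il6 (0.97), and their differences between groups were -0.38, -0.18 and -1.08. Those nearest to Plau were Tpbgl (0.97), Midn (0.97) and Chrac1 (0.96), at +0.45, +0.25 and +0.08. Each of these 3 had higher values in all PDGF-CC arrays than in any PBS array, as did Plau and 1.8% of all probe sets tested. Genes picked for likeness to Plau over the same arrays tend to share its separation, so nothing is read from it.

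Plaur was most alike to Larp4, Csnk1a1 and Nol8, with correlations of 0.99, 0.98 and 0.98. Serpini1 was most alike to Gng11 (0.98), Colec12 (0.97) and Rbsn (0.95). Lrp1 was most alike to Zfp37 (0.999), the complement gene C1qa (0.995), which microglia express strongly, and Afg3l2 (0.995). Since Lrp1 stood apart only in PBS array 2 (7.85), that array weighs heavily in these correlations and in the 427 above 0.9. No gene named here for its likeness passed the adjusted threshold by limma.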

How the data were processed

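The deposited table holds log2 values for 33793 probe sets on 7 arrays; each sample's 10 ng of RNA was amplified and labelled with biotin, per the labels' protocols. The submitters' processing notes name Affymetrix Expression Console, RMA and limma, without versions. RMA makes value distributions equal between arrays, which removes any overall difference in RNA level. Genome build and settings: not given in the sources used here. Arrays have no read depth, and their number limits the precision.

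Of the probe sets that carry a symbol, those brighter on average than their 30th percentile (4.14) were tested, 17734 in all. The groups were compared in R 4.3.3 with limma 3.58.1 (lmFit, then eBayes), with no covariate, 2-sided, with Benjamini-Hochberg adjustment over all 17734 and a threshold of 0.05. The fit was checked on simulated data. Single genes also had an exact permutation test over all 35 splits. Levels of different genes are not compared, since probe sets differ in brightness. Of 33793 probe sets 23521 had 1 symbol, 1814 several and 8458 none. List symbols were matched by symbol or gene ID through RefSeq names (GRCm38.p6). Named were all members, all PDGF list genes, up to 4 genes of smallest p in each other pathway list, and the 3 genes most like each member, leaving out olfactory, vomeronasal, predicted and Rik genes. Members and lists were chosen with earlier results of these data known. Alternatives covered filters, normalization, prior, weights, covariates, blocks and left-out arrays. Figures used matplotlib 3.10.9.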

Additional observations from a re-analysis of the deposited data

Results flagged for a closer look

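In 4 of the 32 named genes, PDGF-CC array 1 stood apart from the other 3 arrays of its group by Dixon's criterion, and chance alone flags about 1 group in 20. It was the highest for Lrp1 (8.41, next 8.32) and for F2r (8.02, next 7.80). It was the lowest for Mmp9 (3.90, next 4.67) and for Bdnf (4.16, next 4.27). For Lrp1, Mmp9 and Bdnf the other arrays of the group include exactly equal deposited values, which narrows the range against which the gap is read.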

How the results depend on the processing

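Plat, Plau and Plaur stayed short of the adjusted threshold by limma under each of 17 alternative fits. Adjusted p by limma ran from 0.571 to 0.846 for Plat, 0.412 to 0.846 for Plau and 0.631 to 0.846 for Plaur. Their directions were also kept, but a change of filter or prior leaves a difference as it is. Leaving out an array could not reverse Plat or Plau, whose groups did not overlap. Lrp1 changed direction without 1 array (leave-one-out range -0.0032 to 0.25) and was at -0.057 within description numbers 5 to 7. Over left-out arrays, differences that changed sign ran from -0.25 to 0.14 for Pdgfrb, -0.014 to 0.043 for Pdgfc, -0.21 to 0.025 for Vwf, -0.0071 to 0.094 for F2r and -0.0018 to 0.12 for Procr, and Pdgfrb was at 0.055 with the description number as a covariate; the cause was not tested. Of the 27 named pathway genes, 25 moved by over 1.5 times without at least 1 array, 15 of them without PBS array 2. The count of probe sets past the adjusted threshold, 0 with all arrays, was 3 after filtering at the 50th percentile, 3 with arrays centred on their median, 3 with a trended and robust prior, 1 with quantile normalization repeated and 3 of 15520 genes with probe sets of a gene averaged, all of them lower; without each array it ran from 0 to 1.

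Both groups use array numbers 1 to 3. Deviations of same-numbered arrays correlated at 0.16, 0.11 and 0.084. As the last is not over 0.1 and the labels tie no numbers together, the numbers were not taken as pairs, although 5 of 6 arrays correlated best with their own number, a hint from the data towards pairing. With the replicate block, differences were -0.24 for Plat, 0.34 for Plau, -0.22 for Plaur, -0.22 for Serpini1 and 0.17 for Lrp1. In that fit 0 probe sets passed the adjusted threshold by limma and 1266 had an unadjusted p under 0.05. PDGF-CC array 4 has no PBS array of the same number, so it adds nothing to the differences in that fit. They equal those from leaving out this array and are not a separate check on all arrays. Each member has 1 probe set, so averaging probe sets left its values as they were. The number of arrays and the separation of signal from background in dim genes limit what can be seen.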
